A study of Mus musculus with 2 samples.

Results

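Levels of 10 genes of the Eph and ephrin family were followed across cell classes of caudal tissue from wild-type C57BL/6J mouse embryos at E8.5: the A-class receptors Epha1, Epha2, Epha4, Epha5 and Epha7, the B-class receptors Ephb2 and Ephb3, the A-type ephrin Efna1 and the B-type ephrins Efnb1 and Efnb2. The genes were chosen by symbol, with earlier results of these data known, and each matched 1 of the 32286 features counted. Counts of these genes beside the share over all genes are therefore description and not a test of the set. The family has 12 further genes in mouse, which are described in less detail. The tissue had been pooled, dissociated and profiled as 2 droplet libraries (10x Genomics 5′ kit), replicates 1 and 2, with no other treatment or genotype, so every comparison is between cell classes of the same libraries. Separate pooling of embryos for each library is not stated. The p values therefore measure only how class differences vary between these libraries, in a spread shared by all classes of a fit.

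Eph receptors are the largest family of receptor tyrosine kinases. Their ligands, the ephrins, are themselves held in the membrane, the A-type by a lipid anchor and the B-type by a transmembrane domain, so that signalling needs contact between cells. Receptors of the A class bind mainly A-type ephrins and those of the B class mainly B-type ephrins, while Epha4 binds both types. Contact between receptor-bearing and ephrin-bearing cells is known to drive repulsion or sorting, and in the embryo it acts where somite boundaries form, between rostral and caudal parts of a somite, in the hindbrain and in vessels. The region studied here contains the caudal epiblast, which feeds spinal cord and paraxial mesoderm, the presomitic mesoderm and the youngest somites.

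Replicate 1 held 30449 barcodes with 295866003 UMIs (unique molecular identifiers, counts of captured RNA molecules) and replicate 2 held 18245 barcodes with 150964773 UMIs. Barcodes with at least 2000 UMIs and 0.3 to 10% mitochondrial UMIs were kept, which left 11244 and 8328 barcodes with medians of 17872.5 and 13685.5 UMIs and 68863 and 35090 UMIs of the 10 genes. A barcode joined a class when at least 3 markers of that class were detected and at least 2 more than of any other of 14 marker lists. None of the 10 genes is a marker. This placed 58.0% and 61.3% of the kept barcodes, and 3281 and 2341 barcodes fell 1 step short of the rule against 2578 and 1935 just at it. The libraries shared 114 of the kept barcode sequences. The 10 classes with at least 30 barcodes in each library were caudal epiblast-like (1036 and 559 barcodes in replicates 1 and 2), presomitic mesoderm-like (1536 and 1067), segment-forming-like (155 and 151), somite-like (221 and 198), lateral plate-like (1638 and 1705), endothelium-like (312 and 241), neural-like (265 and 262), surface ectoderm-like (511 and 433), gut endoderm-like (603 and 228) and notochord-like (53 and 35). Segment-forming-like barcodes are paraxial barcodes with at least 2 of Mesp2, Ripply2, Mesp1, Cer1 and Ripply1, genes switched on where the next somite is cut off. Paraxial barcodes had at least 3 markers of presomitic mesoderm or of somite, and at least 2 more than of any list besides these. The 10 leading genes of segment-forming-like barcodes held 4 of the segment-forming markers, 2 of presomitic mesoderm and 2 of somite, and the gate used each of these lists.

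All 10 genes had an entry among the RefSeq promoters (GRCm38.p6, the mm10 build), each 250 bases before and 50 after a start site, with 12 entries in all because Epha7 and Efna1 have 2 start sites each. The promoters of 4 genes are printed because their levels differ along the path from caudal epiblast to somite, where Epha5 and Efna1 end lower, Efnb2 ends higher and Epha4 peaks between. Letters are 5′ to 3′ on the gene's strand, all 4 on the minus strand, with CG dinucleotides in capitals. Epha5 lies on chr5:84417333-84417632, Epha4 on chr1:77515039-77515338, Efna1 on chr3:89280902-89281201 and Efnb2 on chr8:8661193-8661492.
Epha5: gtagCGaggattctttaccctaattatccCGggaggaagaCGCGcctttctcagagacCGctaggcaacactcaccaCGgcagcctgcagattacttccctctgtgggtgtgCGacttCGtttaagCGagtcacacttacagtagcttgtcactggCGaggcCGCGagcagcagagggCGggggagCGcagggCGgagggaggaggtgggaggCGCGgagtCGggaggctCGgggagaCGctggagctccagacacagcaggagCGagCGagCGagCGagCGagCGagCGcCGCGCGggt
Epha4: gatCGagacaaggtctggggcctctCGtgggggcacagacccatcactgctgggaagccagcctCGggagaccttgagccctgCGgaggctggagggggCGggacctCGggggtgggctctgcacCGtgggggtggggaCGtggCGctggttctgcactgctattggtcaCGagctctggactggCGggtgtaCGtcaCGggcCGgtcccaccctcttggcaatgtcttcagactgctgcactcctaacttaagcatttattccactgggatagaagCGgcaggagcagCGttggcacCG
Efna1: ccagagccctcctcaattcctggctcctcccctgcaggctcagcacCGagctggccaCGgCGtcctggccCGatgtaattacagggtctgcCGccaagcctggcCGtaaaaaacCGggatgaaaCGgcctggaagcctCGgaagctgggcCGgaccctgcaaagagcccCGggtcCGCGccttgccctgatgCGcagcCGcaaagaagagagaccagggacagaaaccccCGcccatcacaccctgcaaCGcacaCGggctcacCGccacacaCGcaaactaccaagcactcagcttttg
Efnb2: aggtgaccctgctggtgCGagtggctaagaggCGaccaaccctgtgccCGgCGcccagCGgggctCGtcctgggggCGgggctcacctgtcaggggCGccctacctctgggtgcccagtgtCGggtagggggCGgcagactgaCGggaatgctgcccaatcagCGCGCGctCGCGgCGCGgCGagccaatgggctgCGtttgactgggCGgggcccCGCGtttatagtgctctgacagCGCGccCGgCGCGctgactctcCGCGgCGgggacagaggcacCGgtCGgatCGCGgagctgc
The 4 windows held 30, 17, 20 and 35 CG dinucleotides. The 10 genes' promoters held between 10 and 35, against a median of 7 over 32851 promoters, of which 43.5% hold at least 10. On either strand, the E-box CANNTG, found in 72.3% of promoters, occurred in those of Epha1, Ephb2, Ephb3 and Efnb2. The T-box motif TCACACCT (1.28% of promoters) occurred in none of the 12, and the Tcf/Lef motif CTTTGA (16.0% of promoters) in that of Epha2. These are matches of letters in a short window, with no measure of binding.

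Each class was summed per library and levels are given in CPM (counts scaled to a total of 1000000 UMIs in that class and library), always with replicate 1 before replicate 2. CPM is not divided by transcript length, so levels are compared between classes within a gene and not between genes. In such sums a smaller share of expressing cells and less RNA per cell cannot be told apart. Each gene had its own pattern over the 10 classes, with a highest class mean 8.33 times (Ephb2) to 148 times (Epha5) its lowest. The largest ratios are poorly fixed, since the lowest class of Epha5 held 2 and 1 UMIs and that of Epha7 (110 times) 5 and 0.

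**Figure D1:**
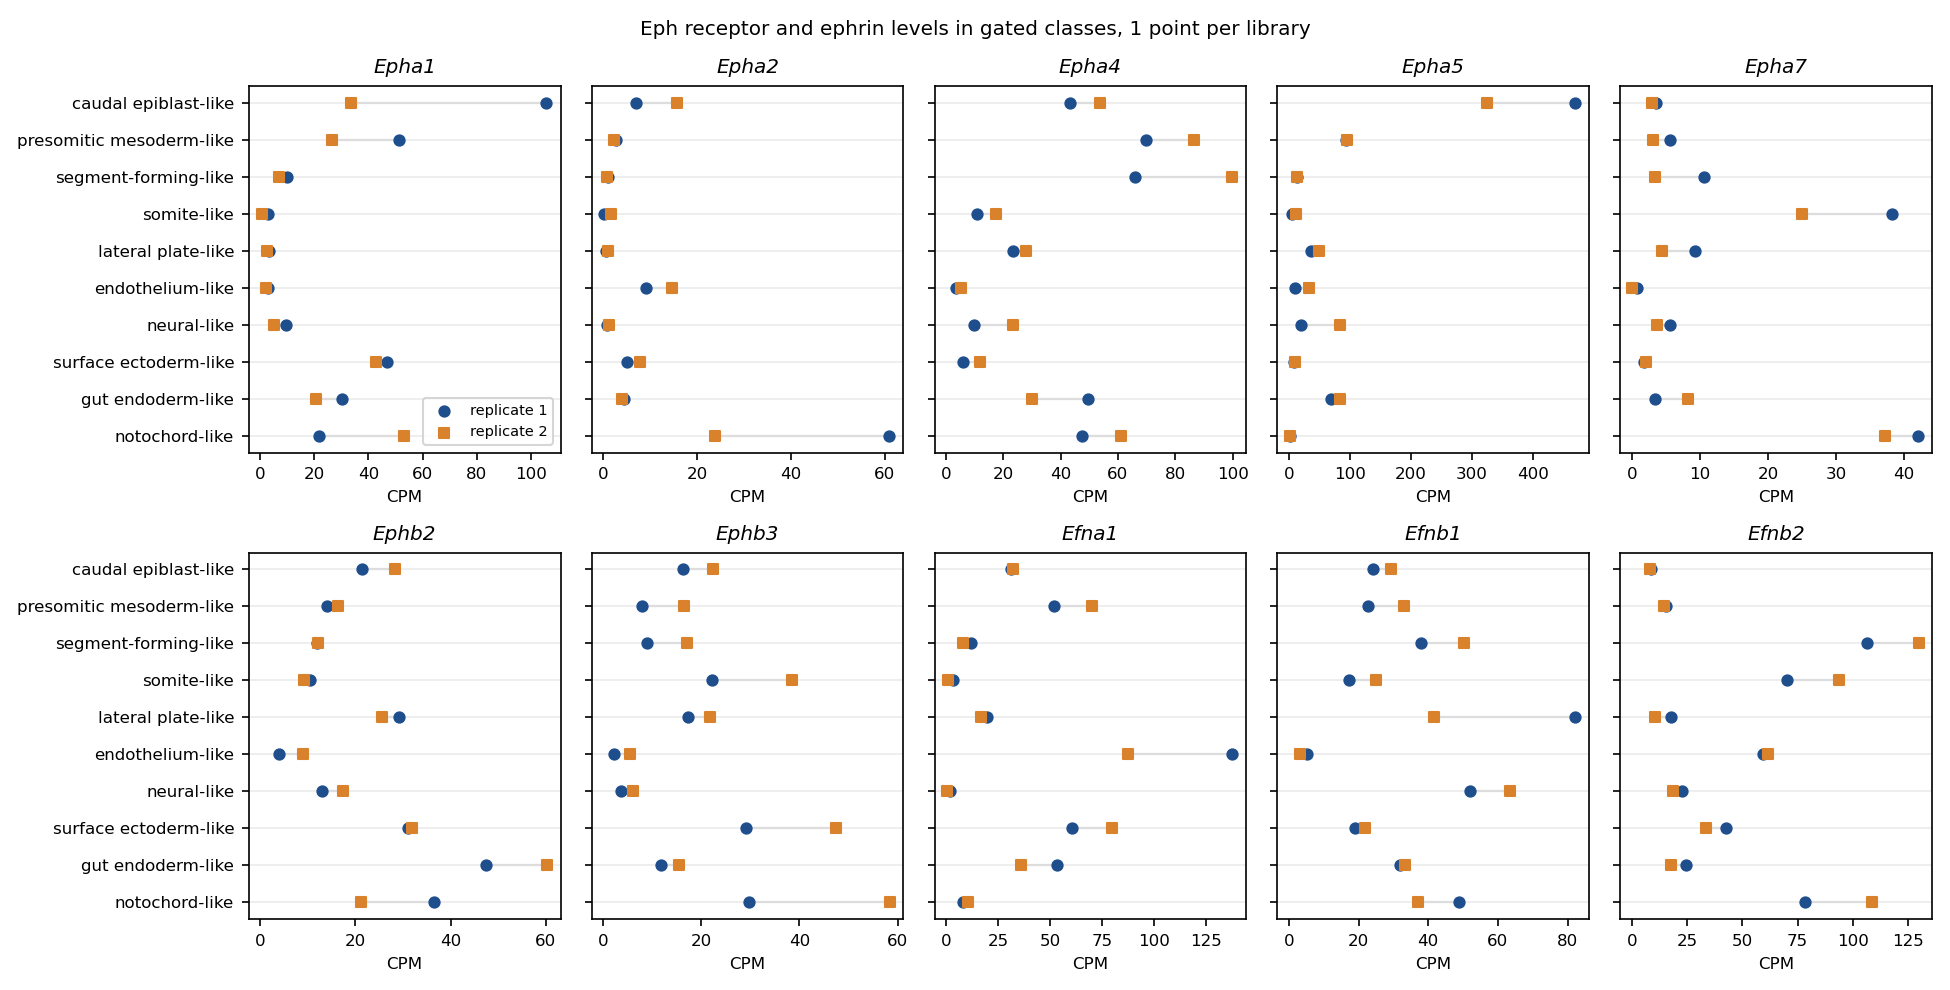
Level of each gene (x axis, CPM, a separate scale for each gene) in 10 gated classes (y axis), with a circle for replicate 1, a square for replicate 2 and a line between them. Epha5 was highest in caudal epiblast-like barcodes (469 and 325 CPM), Efnb2 in segment-forming-like barcodes (106.5 and 130 CPM) and Efna1 in endothelium-like barcodes (137 and 87.4 CPM).

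Among the A-class receptors, Epha5, known mainly for its part in axon guidance, showed the steepest pattern. It measured 469 and 325 CPM in caudal epiblast-like barcodes, which supplied 55.4% of the sum of its class means. By fold over the mean of the other classes, with 20 CPM added to each side, it ranked first in that class. Its log2 value was 2.91, against 2.835 for the next gene, the marker Nkx1-2. The added 20 CPM shrinks the folds of genes with low levels. The next classes were presomitic mesoderm-like at 94.0 and 94.7 CPM and gut endoderm-like at 68.5 and 84.1 CPM. The levels apart from these were lower, down to 2.71 and 2.65 CPM in notochord-like barcodes (2 and 1 UMIs). Neural-like barcodes differed between libraries, at 19.2 and 83.3 CPM.

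Epha1, an epithelial receptor, was highest in caudal epiblast-like barcodes too, but the libraries disagreed there by 3.16 times, at 106 and 33.4 CPM. Surface ectoderm-like (46.7 and 42.6 CPM), presomitic mesoderm-like (51.4 and 26.6 CPM) and notochord-like barcodes (21.7 and 53.1 CPM) overlapped with it. Somite-like barcodes were lowest at 3.01 and 0.659 CPM. In all, 7 of the 9 neighbours in its order of classes overlapped. In the GENCODE annotation Epha1 overlaps genes on the opposite strand at both ends, and whether the counting used strand is not stated, so reads of these partners cannot be told apart from its own.

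Epha4, the receptor for both ephrin types, formed a plateau in unsegmented paraxial mesoderm. Its levels were 65.8 and 99.9 CPM in segment-forming-like and 69.8 and 86.4 CPM in presomitic mesoderm-like barcodes, whose values overlapped. Notochord-like (47.4 and 61.0 CPM) and caudal epiblast-like barcodes (43.2 and 53.8 CPM) followed. Somite-like barcodes had 10.7 and 17.5 CPM and endothelium-like barcodes 3.46 and 5.17 CPM.

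Epha7 and Epha2 both peaked in notochord-like barcodes. Epha7, a receptor with a role in neural fold fusion, measured 42.0 and 37.1 CPM there and 38.3 and 25.04 CPM in somite-like barcodes, and every other class lay at or below 10.6 CPM in both libraries. Epha2, an epithelial and endothelial receptor, measured 60.9 and 23.9 CPM in notochord-like barcodes, above all other classes in both libraries. Endothelium-like barcodes came next with 9.09 and 14.7 CPM.

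Of the B-class receptors, Ephb2, a receptor of axon pathfinding and of the gut epithelium, was highest in gut endoderm-like barcodes at 47.5 and 60.3 CPM. Surface ectoderm-like barcodes had 31.1 and 31.9 CPM, somite-like barcodes 10.4 and 9.23 CPM and endothelium-like barcodes 4.04 and 8.91 CPM. Ephb3, which often acts alongside Ephb2, measured 29.8 and 58.4 CPM in notochord-like, 29.2 and 47.4 CPM in surface ectoderm-like and 22.2 and 38.6 CPM in somite-like barcodes, and these 3 classes overlapped. Its lowest classes were neural-like (3.63 and 6.14 CPM) and endothelium-like (2.16 and 5.46 CPM).

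Of the ligands, Efna1, first known as a gene induced by inflammatory signals in endothelium, was highest in endothelium-like barcodes at 137 and 87.4 CPM. Surface ectoderm-like (60.4 and 79.7 CPM) and presomitic mesoderm-like barcodes (51.7 and 70.3 CPM) followed, and neural-like barcodes were lowest at 1.995 and 0.491 CPM. Efnb1, the X-linked ephrin of craniofacial development, had its highest mean in lateral plate-like barcodes at 82.2 and 41.7 CPM. Those values overlapped with neural-like (51.9 and 63.6 CPM) and segment-forming-like barcodes (37.9 and 50.35 CPM). Both of these classes lay above lateral plate-like barcodes in replicate 2. Efnb2, the ephrin of arterial endothelium and of caudal somite cells, measured 106.5 and 130 CPM in segment-forming-like, 78.5 and 109 CPM in notochord-like, 70.0 and 93.9 CPM in somite-like and 59.4 and 61.5 CPM in endothelium-like barcodes. It was lowest in caudal epiblast-like barcodes at 8.61 and 8.13 CPM.

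Differences between classes were tested on all genes with edgeR's quasi-likelihood test, with library as a block and Benjamini-Hochberg adjustment over 13611 genes. All 10 genes passed the filter on low counts. Values are log2 differences ± SE (n = 2 libraries per class), and a difference is called when the adjusted p is under 0.05. The SE is derived from the test's F value, whose spread is fitted over all classes together.

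From caudal epiblast-like to presomitic mesoderm-like barcodes, the path of cells that leave the progenitor region for mesoderm, 2 of the 10 genes were higher and 4 lower in the mesoderm, against 10.3% of all genes called (5.03% higher and 5.25% lower). Epha5 fell by 2.13 ± 0.36 on the log2 scale (adjusted p = 0.00108), with log2 -2.35 and -1.76 in replicates 1 and 2. Epha2 fell by 2.02 ± 0.38 (adjusted p = 0.00247). Smaller declines were called for Ephb3 (log2 -0.75 ± 0.18, adjusted p = 0.0138) and Ephb2 (-0.72 ± 0.19, adjusted p = 0.0242). The 2 ephrins called were Efna1, higher by 0.95 ± 0.24 (adjusted p = 0.0192), and Efnb2, higher by 0.82 ± 0.24 (adjusted p = 0.0398). Epha4 gave 0.67 ± 0.24 (adjusted p = 0.0974) and Epha1 -0.80 ± 0.29 (adjusted p = 0.0986). The libraries differed for Ephb3 (-1.07 and -0.42) and Epha2 (-1.30 and -2.60). The median of the 10 genes was -0.34, against 0.01 over all genes. Without the library block 2 genes were called, Epha2 and Epha5, against 3.19% of all genes, and the adjusted p was 0.168 for Ephb2, 0.611 for Ephb3, 0.183 for Efna1 and 0.145 for Efnb2. The call of Efnb2 was also lost with a stricter gate of at least 4 markers and a lead of 3 (log2 0.57, adjusted p = 0.266) and with low-mitochondrial barcodes included (0.69, adjusted p = 0.094), and that of Efna1 with DESeq2 (adjusted p = 0.0583). Markers of the other class were present on each side, with the presomitic mesoderm list at 375.5 and 259.5 CPM in caudal epiblast-like barcodes and the caudal epiblast list at 347 and 393 CPM in presomitic mesoderm-like barcodes, and all 7 markers of either list were detected. Their part in the differences was not tested.

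At the transition from presomitic mesoderm-like to segment-forming-like barcodes, 1 of the 10 genes was higher and 3 were lower, against 3.38% of all genes called (1.84% higher and 1.54% lower). Efnb2 rose by 3.003 ± 0.228 (adjusted p = 1.08e-06), with 2.80 and 3.15 in the libraries, from 15.5 and 14.5 CPM to 106.5 and 130 CPM. Over the same step Efna1 changed by -2.57 ± 0.34 (adjusted p = 0.000262; -2.05 and -3.03 in the libraries), Epha5 by -2.79 ± 0.52 (adjusted p = 0.00454) and Epha1 by -2.17 ± 0.42 (adjusted p = 0.00621; 28 and 18 UMIs in segment-forming-like barcodes). Without the library block the call of Epha1 was lost (adjusted p = 0.116). Epha4 gave 0.09 ± 0.26, with an adjusted p of 0.935. The 10 genes had a median of -0.11, against -0.02 over all genes. Segment-forming-like barcodes held markers of both neighbours, with all 7 of presomitic mesoderm (summed 1889 and 1487 CPM) and 6 of 7 of somite (1501 and 1932 CPM). The gate required markers of presomitic mesoderm or somite, so their presence is in part set by the rule.

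From segment-forming-like to somite-like barcodes, 2 genes were higher and 1 was lower, against 1.92% of all genes called (0.801% higher and 1.12% lower). Epha4 fell by 2.55 ± 0.33 (adjusted p = 0.000463), to 10.7 and 17.5 CPM. Epha7 rose by 2.20 ± 0.45 (adjusted p = 0.0175), with 1.85 and 2.80 in the libraries and 30 and 9 UMIs in segment-forming-like barcodes, and Ephb3 rose by 1.24 ± 0.24 (adjusted p = 0.0113). Efnb2 gave -0.52 ± 0.22 (adjusted p = 0.348). Over the 10 genes the median was -0.60, against 0.00 over all genes. Without the library block 1 gene, Epha4, was called, against 0.514% of all genes, and the adjusted p was 0.176 for Epha7 and 0.469 for Ephb3. With DESeq2 in place of edgeR 5 were called, against 2.42% of all genes, and without the filter on low counts 6, against 2.54%.

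**Figure D2:**
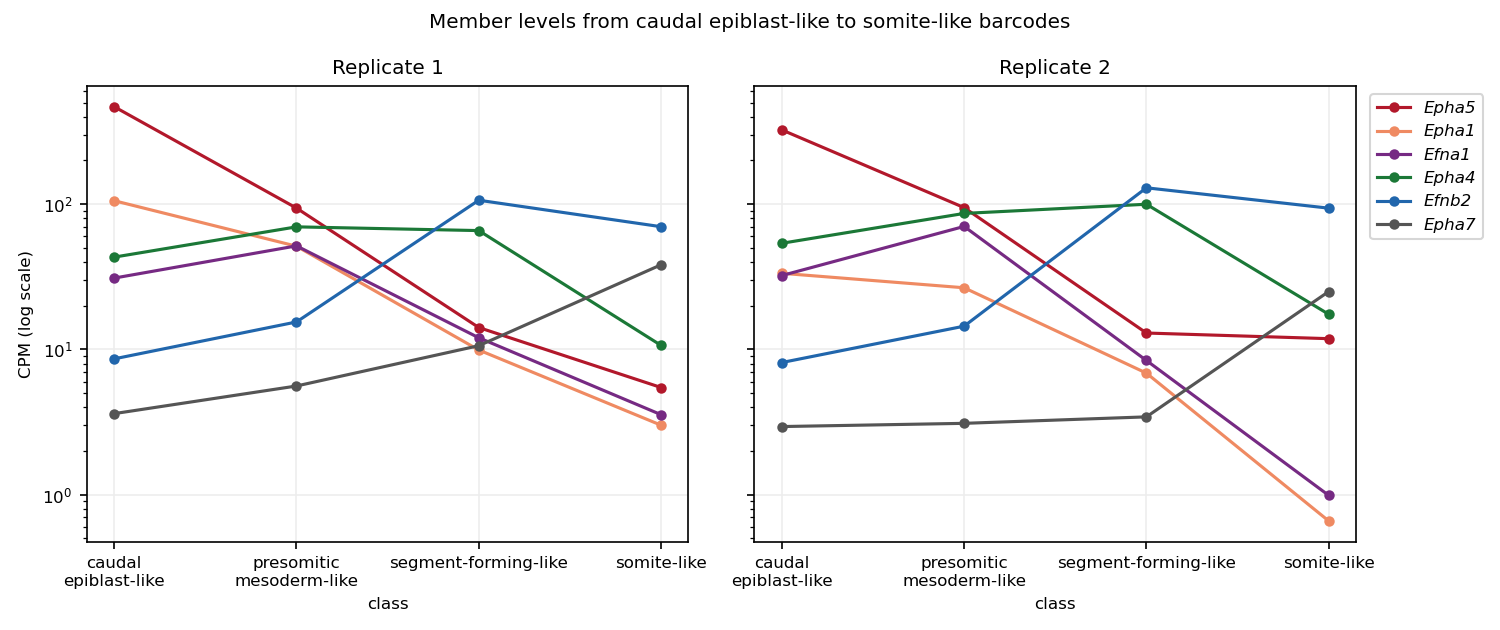
Level (y axis, CPM, log scale) of 6 genes in the 4 classes from caudal epiblast-like to somite-like (x axis), 1 panel per library and 1 line per gene. In both libraries Epha5, Epha1 and Efna1 were lower in somite-like than in presomitic mesoderm-like barcodes, while Efnb2 and Epha7 were higher.

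Somites are divided into a rostral part marked by Tbx18 and a caudal part marked by Uncx, a classic site of opposed Eph and ephrin expression. Somite-like barcodes with Uncx and no Tbx18 UMI numbered 85 and 76, and those with Tbx18 and no Uncx UMI 69 and 60. Efnb2 measured 112 and 122 CPM in the Uncx barcodes (148 and 139 UMIs) and 27.4 and 58.5 CPM in the Tbx18 barcodes (36 and 59 UMIs). The groups did not overlap, and the difference was 1.47 ± 0.30, or 1.997 and 1.039 in the libraries. It did not pass the adjustment over the 13104 genes of that fit by edgeR's quasi-likelihood test (adjusted p = 0.384; unadjusted p = 0.000117). None of the 10 genes was called, against 0.0153% of all genes (0.00763% higher and 0.00763% lower). The genes called were Uncx and Tbx18, which define the groups, and 602 genes had an unadjusted p under 0.05. DESeq2 called 6 genes (0.0458%), Efnb2 among them (1.45 ± 0.33, adjusted p = 0.0277), with 493 at an unadjusted p under 0.05. Without the filter on low counts edgeR also called Efnb2 (1.49 ± 0.20, adjusted p = 1.07e-09), among 50 of 22692 genes (0.22%). The difference itself was near that of the filtered fit and only the SE was smaller. The spread in that fit is estimated with the low-count genes included, from the same 2 libraries, so its small p is not added support. The other 4 genes plotted gave smaller differences. Efnb1 measured 21.9 and 31.7 CPM in Uncx barcodes against 15.2 and 22.8 CPM, and Epha7 35.5 and 22.9 CPM against 29.7 and 33.7 CPM. The median of the 10 genes was 0.20, against -0.01 over all genes.

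**Figure D3:**
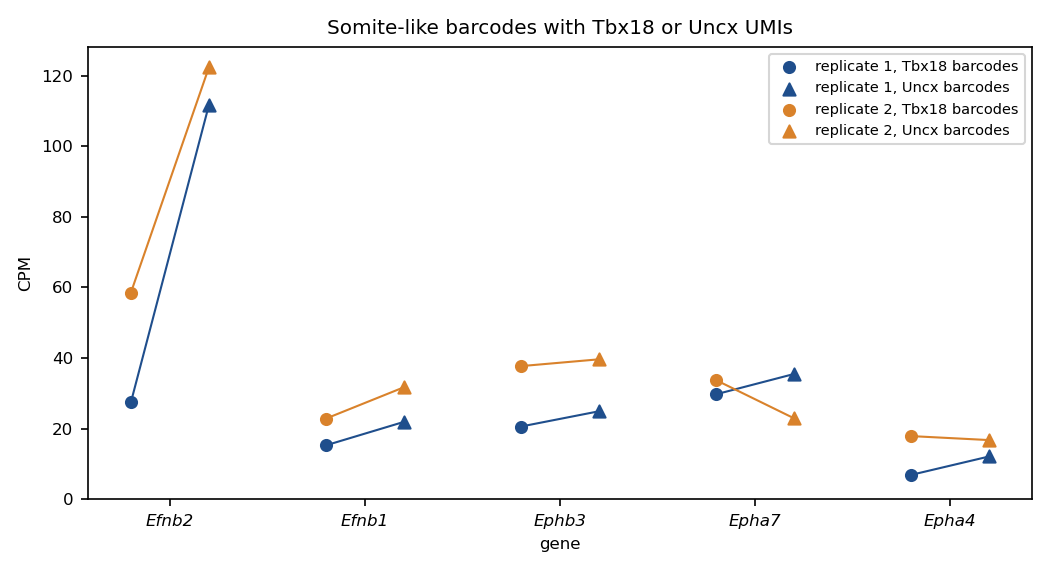
Level (y axis, CPM) of 5 genes (x axis) in somite-like barcodes with Tbx18 UMIs (circles) and with Uncx UMIs (triangles), joined within each library by a line. For Efnb2 both triangles (112 and 122 CPM) lie above both circles (27.4 and 58.5 CPM), whereas for Epha7 the lines of the libraries slope in opposite directions.

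Neural-like barcodes were compared with caudal epiblast-like barcodes, the other exit from the progenitor region. Here 2 genes were higher and 6 lower, against 8.04% of all genes called (4.06% higher and 3.99% lower). Efna1 fell by 4.54 ± 0.46 (adjusted p = 9.69e-06), with log2 -3.83 and -5.51 in the libraries, on 11 and 2 UMIs in neural-like barcodes, so its size is poorly fixed. The 5 receptors that fell were Epha1 (-3.15 ± 0.38, adjusted p = 4.4e-05), Epha2 (-3.32 ± 0.54, adjusted p = 0.00081; 5 and 5 UMIs in neural-like barcodes), Epha4 (-1.62 ± 0.29, adjusted p = 0.00193), Epha5 (-3.13 ± 0.41, adjusted p = 9.95e-05) and Ephb3 (-2.02 ± 0.24, adjusted p = 4.66e-05). The libraries differed most for Epha5, at -4.60 and -1.95. Both B-type ephrins were higher in neural-like barcodes, Efnb1 by 1.12 ± 0.28 (adjusted p = 0.0197) and Efnb2 by 1.31 ± 0.27 (adjusted p = 0.00462). Without the library block the call of Efnb1 was lost (adjusted p = 0.0637). This comparison and that of presomitic mesoderm share the caudal epiblast-like sums. The 10 genes had a median of -1.82, against -0.01 over all genes. Neural-like barcodes retained the caudal epiblast list at 254 and 183 CPM, against 1017 and 1060 CPM in that class.

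Lateral plate-like and somite-like barcodes, mesoderm of neighbouring positions, differed in 7 of the 10 genes, 4 higher and 3 lower in the lateral plate, against 14.5% of all genes called (8.43% higher and 6.09% lower). Efnb2 fell by 2.56 ± 0.22 (adjusted p = 8.39e-07), with log2 -1.995 and -3.162 in the libraries. Epha7 changed by -2.26 ± 0.37 (adjusted p = 0.000487) and Ephb3 by -0.62 ± 0.19 (adjusted p = 0.0397). The call of Ephb3 was lost without the library block (adjusted p = 0.51), with the stricter gate (0.112), with low-mitochondrial barcodes included (0.0636) and with DESeq2 (0.0566). Higher in the lateral plate were Efna1 (2.90 ± 0.48, adjusted p = 0.000472; 2.37 and 3.77 in the libraries; 13 and 3 UMIs in somite-like barcodes), Epha5 (2.29 ± 0.56, adjusted p = 0.0104), Efnb1 (1.55 ± 0.31, adjusted p = 0.00252; 2.22 and 0.69 in the libraries) and Ephb2 (1.44 ± 0.24, adjusted p = 0.000555). The 2 B-type ephrins therefore differed in opposite directions between these tissues. Over the 10 genes the median was 0.73, against 0.02 over all genes.

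Endothelium-like barcodes were compared with the lateral plate-like barcodes, and 3 genes were higher and 5 lower, against 36.8% of all genes called (19.8% higher and 17% lower). Higher were Epha2 (3.86 ± 0.43, adjusted p = 3.34e-06), Efna1 (2.79 ± 0.25, adjusted p = 3.38e-07) and Efnb2 (2.24 ± 0.22, adjusted p = 8.22e-07). Lower were Efnb1 (-3.64 ± 0.37, adjusted p = 1.21e-06; 36 and 11 UMIs in endothelium), Epha7 (-3.72 ± 0.69, adjusted p = 0.000486; 5 and 0 UMIs in endothelium), Epha4 (-2.45 ± 0.37, adjusted p = 7.01e-05; 24 and 18 UMIs), Ephb3 (-2.35 ± 0.25, adjusted p = 2.04e-06; 15 and 19 UMIs) and Ephb2 (-2.06 ± 0.25, adjusted p = 6.09e-06). The libraries gave -2.62 and -1.38 for Ephb2, -2.73 and -1.83 for Ephb3 and 1.91 and 2.64 for Efnb2. The median of the 10 genes was -1.54, against -0.03 over all genes.

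Surface ectoderm-like and neural-like barcodes, the ectodermal tissues that meet at the neural fold, differed in 9 of the 10 genes, against 29.7% of all genes called (16.2% higher and 13.4% lower). Higher in surface ectoderm were Efna1 (5.66 ± 0.44, adjusted p = 1.35e-07; 4.77 and 6.76 in the libraries; 11 and 2 UMIs in neural-like barcodes), Ephb3 (2.93 ± 0.24, adjusted p = 2.23e-07), Epha1 (2.60 ± 0.39, adjusted p = 9.79e-05), Epha2 (2.54 ± 0.58, adjusted p = 0.00335; 5 and 5 UMIs in neural-like barcodes), Ephb2 (1.03 ± 0.22, adjusted p = 0.00206) and Efnb2 (0.84 ± 0.24, adjusted p = 0.0148). Lower in surface ectoderm were Epha5 (-2.44 ± 0.49, adjusted p = 0.00135; -1.24 and -3.15 in the libraries), Efnb1 (-1.55 ± 0.30, adjusted p = 0.000881) and Epha4 (-0.95 ± 0.35, adjusted p = 0.0489). The call of Epha4 was lost without the library block (adjusted p = 0.134), with the stricter gate (0.072) and with low-mitochondrial barcodes included (0.0604). The 10 genes had a median of 0.94, against 0.02 over all genes.

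The epithelia of gut endoderm and surface ectoderm differed in 5 genes, 3 higher and 2 lower in gut endoderm-like barcodes, against 20.4% of all genes called (11.3% higher and 9.06% lower). Higher were Epha5 (3.13 ± 0.47, adjusted p = 0.000181), Epha4 (2.43 ± 0.31, adjusted p = 3.68e-05; 3.07 and 1.38 in the libraries) and Ephb2 (0.78 ± 0.19, adjusted p = 0.00866). Lower were Ephb3 (-1.39 ± 0.20, adjusted p = 9.72e-05) and Efnb2 (-0.78 ± 0.23, adjusted p = 0.0262), so the B-class receptors Ephb2 and Ephb3 differed in opposite directions. Without the library block 3 genes were called, against 8.65% of all genes, and the adjusted p was 0.0629 for Ephb2 and 0.083 for Efnb2. Without the filter on low counts 9 were called, against 13.4% of all genes. The call of Efnb2 was also lost with the stricter gate (adjusted p = 0.118). In gut endoderm-like barcodes the 7 presomitic mesoderm markers were all detected and summed to 535 and 181 CPM, against 208 and 165 CPM in surface ectoderm-like barcodes, and their part in the higher Epha5 and Epha4 was not tested. Over the 10 genes the median was 0.13, against -0.02 over all genes.

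Notochord-like barcodes, few in number, were compared with the gut endoderm-like barcodes beneath them, and 4 genes were higher and 2 lower, against 12.6% of all genes called (5.61% higher and 7.01% lower). Epha2, Epha7, Efnb2 and Ephb3 were higher, by 3.25 ± 0.47 (adjusted p = 0.000282; 3.54 and 2.38 in the libraries), 2.84 ± 0.54 (adjusted p = 0.00246; 3.35 and 2.05), 1.90 ± 0.30 (adjusted p = 0.000679; 1.499 and 2.509) and 1.45 ± 0.28 (adjusted p = 0.00324; 1.15 and 1.80). In notochord-like barcodes Epha2 rested on 45 and 9 UMIs and Epha7 on 31 and 14. Without the library block the call of Ephb3 was lost (adjusted p = 0.103). Efna1 was lower (-2.51 ± 0.59, adjusted p = 0.0104; -2.85 and -1.84) on 6 and 4 UMIs, and Epha5 was lower (-4.91 ± 1.23, adjusted p = 0.0154) on 2 and 1 UMIs, so the size of these 2 differences is poorly fixed. The median of the 10 genes was 0.25, against -0.08 over all genes. The gut endoderm list stood at 397 and 225.5 CPM in notochord-like barcodes, against 1552 and 834 CPM in gut endoderm-like barcodes, and Foxa2, a shared gene of both tissues, is part of it.

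**Figure D4:**
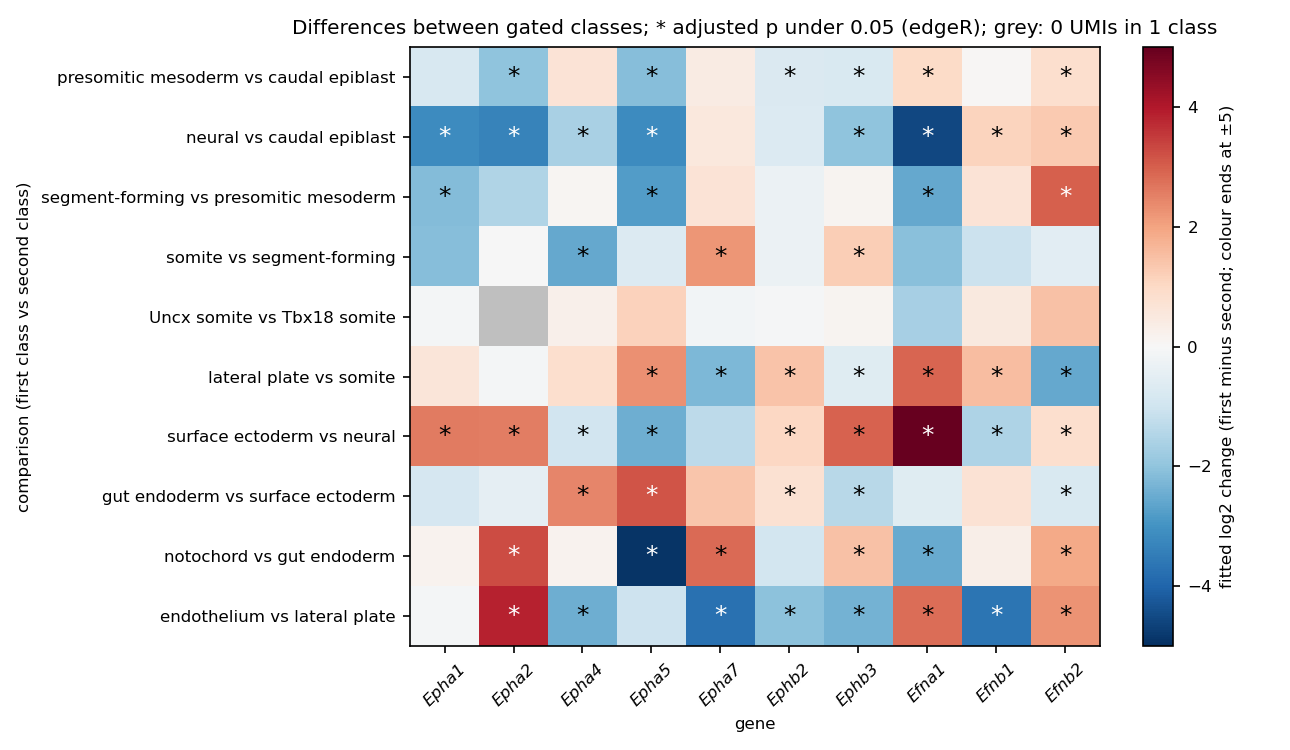
Fitted log2 difference (colour, first class minus second class) of the 10 genes (x axis) in 10 comparisons between classes (y axis), with an asterisk where edgeR's adjusted p is under 0.05 and grey where both libraries of a class held 0 UMIs. Efna1 was 4.54 lower in neural than in caudal epiblast-like barcodes and 5.66 higher in surface ectoderm than in neural-like barcodes. Both values rest on its 11 and 2 UMIs in neural-like barcodes.

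The remaining family genes and the signalling partners of Eph receptors give the setting of these differences. Of the 12 other receptors and ephrins 8 were tested, since Epha3, Epha6, Epha8 and Epha10 did not pass the filter on low counts, and of 28 partners 27 were tested. Of the 8 genes, 3 were higher and 1 lower in presomitic mesoderm-like than in caudal epiblast-like barcodes, against 10.3% of all genes called. In neural-like against caudal epiblast-like barcodes 2 were higher and 4 lower, against 8.04% of all genes called. In endothelium-like against lateral plate-like barcodes 1 was higher and 5 lower, against 36.8%. At the step into segment-forming-like barcodes 0 were higher and 1 was lower, against 3.38%. At the step into somite-like barcodes 0 were called, against 1.92%, with 2 at an unadjusted p under 0.05. In lateral plate-like against somite-like barcodes 1 was higher and 0 lower (14.5%), and in notochord-like against gut endoderm-like 0 were called (12.6%). Surface ectoderm-like against neural-like barcodes gave 3 higher and 1 lower (29.7%), and gut endoderm-like against surface ectoderm-like 2 and 1 (20.4%). Between Uncx and Tbx18 barcodes 0 were called (0.0153%). Efna3, an A-type ephrin, was lower in neural-like than in caudal epiblast-like barcodes (-2.58 ± 0.48, adjusted p = 0.00248) and higher in surface ectoderm-like than in neural-like barcodes (2.38 ± 0.50, adjusted p = 0.00173), both on the same 9 and 22 UMIs in neural-like barcodes. It was lower in endothelium-like than in lateral plate-like barcodes (-1.76 ± 0.56, adjusted p = 0.02), where Efna1 was higher. Efnb3, a B-type ephrin of the nervous system, was higher in neural-like than in caudal epiblast-like barcodes (2.05 ± 0.24, adjusted p = 4.03e-05) and lower in surface ectoderm-like than in neural-like barcodes (-2.41 ± 0.27, adjusted p = 4.68e-06). In endothelium-like against lateral plate-like barcodes, Ephb6, a receptor without kinase activity, gave -2.27 ± 0.49 (adjusted p = 0.00149; 4 and 2 UMIs in endothelium) and Efna2 -2.26 ± 0.32 (adjusted p = 3.78e-05). Ephb4, the receptor of venous endothelium that binds Efnb2, measured 77.7 and 89.1 CPM in endothelium-like barcodes, 77.9 and 85.9 CPM in presomitic mesoderm-like and 84.0 and 84.9 CPM in notochord-like barcodes.

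Of the 27 signalling partners, 12 were higher and 3 lower in endothelium-like than in lateral plate-like barcodes, where 19.8% of all genes were higher and 17% lower. Those called with a log2 difference of at least 2 there were the exchange factors Arhgef15 (5.99 ± 0.29, adjusted p = 3.48e-10), Vav3 (4.24 ± 0.29, adjusted p = 1.11e-08) and Tiam1 (2.89 ± 0.15, adjusted p = 9.48e-10) and Rgs3, a regulator of G-protein signalling (2.75 ± 0.26, adjusted p = 4.44e-07). Ngef, the exchange factor ephexin that Epha4 activates, was higher in neural-like than in caudal epiblast-like barcodes (2.06 ± 0.60, adjusted p = 0.045; 22 and 4 UMIs in caudal epiblast-like barcodes) and lower in surface ectoderm-like than in neural-like barcodes (log2 -3.61 ± 0.75, adjusted p = 0.00176; 3 and 2 UMIs in surface ectoderm-like barcodes). Vav3 was lower in gut endoderm-like than in surface ectoderm-like barcodes (-2.90 ± 0.40, adjusted p = 9.02e-05; 14 and 5 UMIs in gut endoderm-like barcodes). In surface ectoderm-like against neural-like barcodes 6 of the 27 were higher and 3 lower, against 29.7% of all genes called. Gut endoderm-like against surface ectoderm-like barcodes gave 5 and 3 (20.4% of all genes called). Neural-like against caudal epiblast-like barcodes gave 1 and 3 (8.04%). In lateral plate-like against somite-like barcodes 2 were higher and 1 lower (14.5%), and in notochord-like against gut endoderm-like 2 and 0 (12.6%). In presomitic mesoderm-like against caudal epiblast-like barcodes 1 was higher and 1 lower (10.3%). At each of the 2 steps into segment-forming-like (3.38%) and somite-like barcodes (1.92%) 0 were higher and 1 lower.

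Pairing of receptors and ligands was read from 11 pairs that can bind, with a class counted when both genes lay above their own mean over classes in both libraries. Epha1 and Efna1 met this in presomitic mesoderm-like, surface ectoderm-like and gut endoderm-like barcodes. Epha4 and Epha5 each met it with Efna1 in presomitic mesoderm-like barcodes. Epha4 met it with both Efnb1 and Efnb2 in segment-forming-like and notochord-like barcodes. Ephb3 met it with Efnb2 in somite-like and notochord-like barcodes and with Efnb1 in notochord-like barcodes, and Ephb2 with Efnb1 in lateral plate-like barcodes. Epha2 and Epha7 met it with Efna1 in 0 classes, and Ephb2 and Efnb2 likewise in 0. Epha7 and Efna1 ran in opposite directions over classes and libraries (Pearson r = -0.64 over 20 sums of 10 classes), while Epha4 and Efnb1 gave r = 0.61. Epha5 and Efnb2, which are not among the 11 pairs, gave r = -0.85, the lowest between any 2 of the 10 genes. These correlations describe classes that share libraries and carry no p value.

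Within classes, co-detection was counted after each barcode had been thinned to 3500 UMIs. Of 72 combinations of pair and class, 1 had an odds ratio with an exact 95% interval above 1 in both libraries, and 0 lay below 1 in both. It was Epha5 with Efna1 in presomitic mesoderm-like barcodes, where 84 of 1440 (5.83%) and 69 of 1013 barcodes (6.81%) held both, with odds ratios of 2.17 (1.58 to 2.96) and 1.58 (1.12 to 2.23). Epha4 and Efnb2 in segment-forming-like barcodes were found together in 8 of 153 (5.23%) and 14 of 151 barcodes (9.27%), with odds ratios of 1.12 (0.387 to 3.02) and 1.25 (0.530 to 2.86), so a link in either direction was not detectable at this depth. In single genes, thinned caudal epiblast-like barcodes held Epha5 in 71.8% and 63.8% (93.2% and 94.3% before thinning), and segment-forming-like barcodes held Efnb2 in 28.8% and 33.1% (64.5% and 75.5% before thinning). Blood-like barcodes of replicate 2 numbered 138 after thinning, with a median of 22738 UMIs before it. They held Epha5 in 1.45%, Epha4 in 2.17%, Efna1 in 2.17% and Efnb2 in 1.45%. Whether blood cells lack these genes was not tested. Intervals and shares cover counting error only.

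Genes with the most similar pattern over the 20 sums of 10 classes were sought among 7722 genes that are neither members of the set nor markers, by the Pearson correlation of log2(CPM + 1) centred within library. Epha5 was closest to Cdx4, a caudal homeobox gene (r = 0.88), then Aven and Gpd2. Epha4 was closest to Kif26b (r = 0.86), Mllt3 and Smoc1, and Epha7 to the noncoding RNA 2900097C17Rik (r = 0.89), Foxd1 and Sema5a. Epha1 was closest to Tcea3 (r = 0.91), Bnip3l and Mgst1, and Epha2 to Mtss2 (r = 0.86), Phldb1 and Ube3c. Ephb2 was closest to Lsr, a protein of epithelial tricellular junctions (r = 0.94), Epb41l5 and Atp6v1f, and Ephb3 to Ubxn2b (r = 0.87), Fzd1 and Vcpkmt. Efna1 was closest to Zfp36l2 (r = 0.90), Rps6ka1 and Unc5b. Efnb1 was closest to Kif5c (r = 0.87), Asf1a and Fam98b, and Efnb2 to Capn2 (r = 0.92), Cdk13 and Add3.

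Of the smaller classes, 3 reached 30 barcodes in 1 library only and entered no test. Intermediate mesoderm-like barcodes of replicate 2 (65 barcodes) had Efnb2 at 172 CPM (95% Poisson interval 147 to 201) and Epha4 at 72.8 CPM (56.5 to 92.2). Extraembryonic endoderm-like barcodes of replicate 1 (180 barcodes) had Efnb1 at 96.1 CPM (86.9 to 106) and Efnb2 at 3.90 CPM (2.23 to 6.34). Blood-like barcodes of replicate 2 (141 barcodes) had every one of the 10 genes between 0.314 and 6.28 CPM.

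The barcodes left out for having under 0.3% mitochondrial UMIs numbered 11242 and 5184, with medians of 5598.5 and 4830 UMIs before any gate. In those that the same gate placed in a class, the 10 genes were lower than in the kept barcodes of that class and library. Of 81 values with at least 20 UMIs expected, 80 had a ratio below 1, with a median of 0.294, and the exception was Efnb1 in surface ectoderm-like barcodes of replicate 1 (1.09). Over all genes the median ratio of a class and library lay between 0.796 and 0.990, with 51.3% to 75.3% of genes below 1. Epha5 in caudal epiblast-like barcodes measured 57.9 against 469 CPM in replicate 1 and 39.7 against 325 CPM in replicate 2, where 0.51% and 1.65% of genes had a lower ratio. Epha4 in presomitic mesoderm-like barcodes measured 8.67 against 69.8 CPM and 5.74 against 86.4 CPM. Gene medians ran from 0.108 for Epha5, 0.124 for Epha4 and 0.139 for Epha7 to 0.508 for Efnb1 and 0.522 for Efna1. The genes with the lowest ratios span 363 kb (Epha5), 148 kb (Epha4) and 154 kb (Epha7), and those with the highest 12.9 kb (Efnb1) and 9.41 kb (Efna1). Ephb2, at 188 kb, had a median of 0.339, and Ephb3, at 18.6 kb, had 0.230. Spearman's rho between span and median ratio was -0.76 over the 10 genes. This relation was looked for after the ratios had been seen, and no cause was tested.

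**Figure D5:**
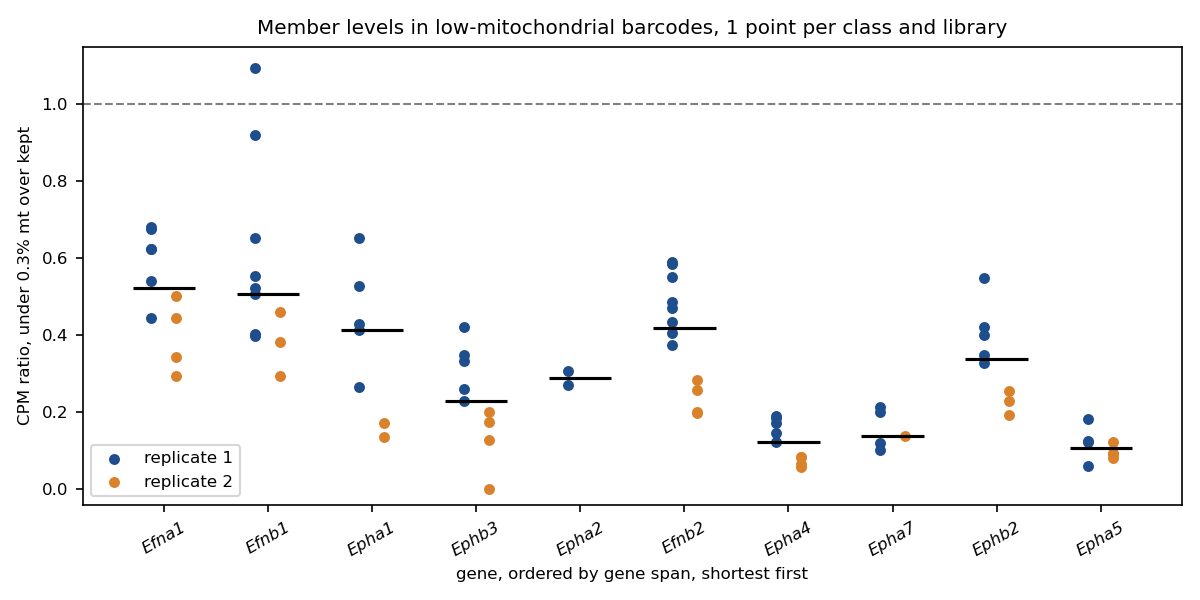
Ratio of CPM in barcodes under 0.3% mitochondrial UMIs to CPM in kept barcodes (y axis) for each gene (x axis, ordered by gene span), 1 point per class and library with at least 20 UMIs expected, a bar at each gene's median and a dashed line at 1. Nearly every point lies below 1, and Epha5, Epha4 and Epha7 have the lowest medians (0.108, 0.124 and 0.139).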

How the data were processed

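The deposited values are counts, whole UMIs per gene and barcode. The submitters' processing notes name Cell Ranger 6.1.1 and the build mm10 for them. No source used here gives the annotation or the strand setting. The 10 genes, marker lists and other gene lists were chosen with earlier results of these data known. Barcodes with at least 2000 UMIs and 0.3 to 10% mitochondrial UMIs were kept and gated on marker genes as the report describes, so every class name ends in "-like". No doublets were removed. Scrublet (Scanpy 1.11.5) marked 9.48% and 3.28% of the kept barcodes, and an alternative leaves them out. Both libraries supply every class, so library is a block, and this pairing comes from the libraries themselves. Counts were summed per class and library and fitted with edgeR 4.0.16 in R 4.3.3 (TMM, filterByExpr, quasi-likelihood F test, two-sided, Benjamini-Hochberg, threshold 0.05), with 20 sums and 9 residual degrees of freedom, or 24 and 11 when somites were split. Per-library log2 values use a prior count of 2. Leading genes of a class were ranked by fold over the mean of the other classes, with 20 CPM added to each side. Of the genes outside the set, the text names those of the fixed lists called with an absolute log2 difference of at least 2, the 3 genes most like each member, and Ephb4, chosen after its values were seen. The difference of Efna3 between endothelium-like and lateral plate-like barcodes is also given, though it is under that limit. Alternatives were other size factors, DESeq2 1.42.0, no filter on low counts, no block, 4000 UMIs, a stricter gate, inclusion of low-mitochondrial barcodes, removal of doublets and each library alone. Thinning to 3500 UMIs used seed 11. Coordinates are GENCODE and RefSeq, GRCm38. The comparison of allantois-like with lateral plate-like barcodes was not run, since the gate placed 9 barcodes per library in the former.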

Additional observations from a re-analysis of the deposited data

Results flagged for a closer look

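The libraries are labelled wild type, yet the feature list includes 1 custom eGFP sequence, and it carried 1295 UMIs in replicate 1 and 548 UMIs in replicate 2 over all barcodes. This feature lies outside every comparison of the report. Its reads were not examined, and where these UMIs come from was not tested.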

How the results depend on the processing

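Of the counts of genes called, 4 of 10 comparisons moved by over 1.5 times, or from 0, under some setting. In the fit with no replicate block (library) the count was 2 in place of 6 for presomitic mesoderm-like against caudal epiblast-like barcodes, 1 in place of 3 for somite-like against segment-forming-like and 3 in place of 5 for gut endoderm-like against surface ectoderm-like barcodes. DESeq2 gave 5 for somite-like against segment-forming-like and 1 in place of 0 for Uncx against Tbx18 barcodes. With no filter on low counts these 2 comparisons gave 6 and 1, and gut endoderm-like against surface ectoderm-like gave 9. The cause was not tested. Of the 57 differences followed, 56 called and Efnb2 between somite parts, none changed sign under any setting. Leaving out the block ended 13 of the calls, the stricter gate 4, inclusion of low-mitochondrial barcodes 3 and DESeq2 2. These calls are named beside each comparison. A single library gives values with no test, and 28 of the 57 differed by over 1.5 times between libraries. Depth limits the notochord-like class and the co-detection of pairs, which rest on few UMIs.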
